A study of Saccharomyces cerevisiae with 48 samples.

Results

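The 49 genes described here are 48 genes of amino acid synthesis and GCN4, the gene of the transcription activator that switches on much of amino acid synthesis in budding yeast. They were chosen by name from 6465 counted genes, as 6 histidine, 7 arginine, 9 branched-chain, 7 lysine, 9 aromatic, 5 threonine, 2 serine and 3 asparagine and glutamine genes, besides GCN4. SLAM-seq was used to follow new transcription: cells take up 4-thiouracil (4tU), the labelled bases are read as C in place of T, and a read with at least 2 such conversions (a T>C read) comes from recent transcription. The 48 libraries formed 16 groups of 3, from 8 Saccharomyces cerevisiae strains kept in YPD medium and given DMSO or 1 mM of the auxin indole-3-acetic acid (IAA) 3 h before harvest. The labels give 5 mM 4tU for 6 min, and the study's methods give a shorter labelling.

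In all 8 strains the chromosomal BDF1 and BDF2 genes carried 3xV5-mAID tags (BDF1-3xV5-mAID::URA3 and BDF2-3xV5-mAID::KanMX), and OsTIR1 was expressed from the GPD1 promoter (pGPD1-OsTIR1:HIS3), so that IAA leads to destruction of both tagged proteins. Bdf1 and Bdf2 are the yeast BET proteins, which bind acetylated histones through bromodomains and help the general transcription machinery at promoters. RDY73 carried nothing else, and RDY234 added a plasmid copy of unmodified BDF1 under its own promoter, at the TRP1 locus. The plasmid of RDY235 had a mutated first bromodomain, that of RDY236 a mutated second bromodomain, and that of RDY237 both. RDY247 carried a copy with motif B and the basic interaction domain both deleted (B/BID). RDY249 and RDY251 carried copies with point mutations in acidic residues of the extra-terminal (ET) domain, named ET(2) and ET(4), of which ET(4) changes more residues. Each strain is a single construct, and the parent strain lacks LYS2, 1 of the 49 genes, as well as the marker genes HIS3, LEU2, TRP1 and others. Of the marker genes TRP1 and URA3 had enough reads to be tested. Under DMSO 1 of these 2 was higher in T>C reads than in RDY73, by a log2 change of 3.90 in RDY234, 4.65 in RDY247 and 3.99 in RDY249. In comparisons of these strains with RDY73, a marker difference cannot be told apart from the BDF1 copy.

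Gcn4 is a leucine zipper protein whose synthesis rises when amino acids run short, because small reading frames in the leader of its mRNA let ribosomes reach the GCN4 coding region only under starvation. It binds sites with the core TGACTC before the genes of most amino acid pathways. Single pathways have further activators, among them Leu3 in leucine and branched-chain synthesis and Lys14 in lysine synthesis, while arginine genes are also repressed when arginine is plentiful. YPD is a rich medium, in which amino acids are supplied.

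The Gcn4 core was looked for on both strands from 250 bases before to 50 bases after the start of each gene, in RefSeq sequence of assembly R64. It was present in 27 of the 49 genes (55.1%) and in 519 of 6415 genes overall (8.09%). The sites below are shown as 30 bases each, on the strand of the gene, with the core in capitals, because these genes are among those that mark the ends of the responses described further on. In the HIS6 site the core is read as its reverse complement. The cores shown lie between 94 bases (HIS6) and 227 bases (ASN1) before the start. Within the window searched, HIS4 has a second core upstream of the one shown.

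HIS4, chrIII:68515-68544, minus strand: acccatgcacagTGACTCacgtttttttat

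HIS6, chrIX:314897-314926, minus strand: gtctagtgtgcaGAGTCAtacggaataatt

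ASN1, chrXVI:822381-822410, plus strand: tcatgtaacattTGACTCattctgtaaact

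ILV6, chrIII:105681-105710, minus strand: tcaccgttatcgTGACTCactttctttcgc

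BAT1, chrVIII:517349-517378, plus strand: attgccttcttaTGACTCaaaattctattg

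LEU4, chrXIV:426838-426867, minus strand: cttacgtgtaagTGACTCagttctttcaaa

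ARG1 (YOL058W, chrXV:219211-220723, plus strand), ARG3 (YJL088W, chrX:268799-270065, plus strand) and LYS20 (YDL182W, chrIV:133437-134973, plus strand), genes that stood apart in most strains below, held no TGACTC in this window, nor did GCN4 itself (YEL009C, chrV:138668-139763, minus strand). These intervals are those counted, in assembly R64. The Leu3 type sequence, CCG and CGG with any 4 bases between them, was in 3 of the 49 genes (LEU1, BAT1 and HOM6) and in 1.42% of all genes. The Lys14 type sequence, TCCNNNGGA, was in 4 of the 49 (LYS9, LYS1, LYS12 and LEU9) and in 3.38% of all genes. A match describes these letters in this window and does not show a bound site.

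Libraries held between 3301563 and 10699839 S. cerevisiae reads, of which between 42821 and 1163027 were T>C reads. Counts were scaled with Schizosaccharomyces pombe cells added as a spike-in (336128 to 1242931 reads a library). Of the 49 genes, 46 had a mean of at least 10 T>C reads over the libraries and were tested among 5118 genes. HIS2 (mean 6.90) and LYS1 (mean 8.13), which act in late steps of histidine and lysine synthesis, fell below that minimum, and the deleted LYS2 gave 3 T>C reads in all libraries together. A gene is called raised or lowered below when edgeR's quasi-likelihood test gave a Benjamini-Hochberg adjusted p under 0.05 over all 5118 genes and the change was at least 2-fold. Log2 changes carry an approximate error, the size of the change divided by the square root of the test's F statistic. It is not an interval from the counts and can look narrow where few reads are left. Exact intervals are given for some such genes. Group means carry the SD of 3 libraries. ASN1 and ASN2, LEU4 and LEU9, and LYS20 and LYS21 are examples of related genes for the same reaction. Whether reads were misassigned between related genes was not tested, for these or for other genes. Between replicates of a group, total reads differed by a chi-square per degree of freedom of 2.49 to 26.7, except for 2 libraries. RDY247 IAA replicate C was at 74.0 and 76.4 against replicates A and B, which were at 10.8 to each other. RDY73 DMSO replicate B was at 42.8 and 33.8 against A and C, which were at 7.23 to each other. T>C reads were not compared in this way. Some of the results that rest on these 2 libraries are also given without them.

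In RDY73, where IAA removes Bdf1 and Bdf2 and no copy replaces them, new RNA from every one of the 46 tested genes was lowered. The median change was −4.48 on the log2 scale, and the lowest that of LYS4, −6.76. Genome-wide 99.9% of tested genes were called lowered and the median was −5.57, so that a decrease as such is no property of these genes. The T>C reads of the 49 genes summed to 5321 ± 227 spike-in normalised reads under DMSO and to 295 ± 37.8 under IAA. Their share of all T>C reads was 0.711 ± 0.013% under DMSO and 1.10 ± 0.038% under IAA, and the 2 sets of 3 libraries did not overlap.

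GCN4 gave 669, 565 and 655 normalised T>C reads in the DMSO libraries of RDY73 and 30.4, 22.4 and 19.9 under IAA. Each IAA library therefore lay far below each DMSO library, and the fitted change was −4.69 ± 0.24 (adjusted p = 1e-35). Total GCN4 reads, which count old and new RNA, were 4119, 3674 and 4509 under DMSO and 4881, 4051 and 4140 under IAA. These 2 sets overlapped, and the log2 change of total GCN4 reads was 0.09 ± 0.13 (adjusted p = 0.51). T>C reads made up 15.4% of GCN4 reads under DMSO and 0.553% under IAA (exact 95% interval 0.467 to 0.650%, counting error only). Across all genes 0.685 to 0.762% of reads were T>C reads in the RDY73 libraries under IAA. Libraries without 4tU were not analysed, so the share that unlabelled RNA would give was not measured.

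The arginine genes fell least in T>C reads of the larger lists in RDY73. Their median was −3.38 over 7 genes, and ARG8, the acetylornithine aminotransferase, was lowest at −4.30 ± 0.42. ARG1, argininosuccinate synthetase (−2.40 ± 0.40), went from 22.5, 29.3 and 15.5 to 4.76, 5.76 and 2.49. ARG3, ornithine carbamoyltransferase (−2.48 ± 0.41), went from 16.2, 24.3 and 23.2 to 3.81, 5.76 and 2.07. For both genes the lowest DMSO library was well above the highest IAA library, although they rest on 5 to 10 raw T>C reads a library under IAA. How many of the T>C reads left under IAA came from unlabelled RNA was not measured, here or for the lists below.

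The histidine genes spanned the widest range. HIS4, which encodes an enzyme of several steps of the pathway, had 9, 12 and 11 raw T>C reads under DMSO and 6, 5 and 3 under IAA, and changed by −2.15 ± 0.55 (adjusted p = 0.00016). HIS6, an isomerase of the same pathway, had 45, 31 and 27 raw T>C reads under DMSO and 2, 0 and 0 under IAA, and changed by −6.26 ± 0.54. On the summed reads HIS6 was 104-fold lower, with an exact 95% interval from 28.1- to 871-fold. HIS1, HIS5 and HIS7, for the first step, the aminotransferase and an amidotransferase, lay between these ends, and the list's median was −3.67 over 5 tested genes. The untested HIS2 had 46 T>C reads in the DMSO group and 1 under IAA.

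The lysine list showed a like spread at a lower level, with a median of −5.32 over 5 tested genes. LYS20, a homocitrate synthase that makes the first intermediate, had 366, 370 and 388 normalised T>C reads under DMSO and 44.2, 37.8 and 26.9 under IAA (−3.37 ± 0.22). LYS4, the homoaconitase of the next step, had 30, 35 and 26 raw T>C reads under DMSO and 1, 0 and 0 under IAA (−6.76 ± 0.57). With 1 read left, the LYS4 ratio of 184 has an exact interval from 32.2 to 7344. LYS12, LYS9 and LYS21 lay between LYS4 and LYS20.

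Changes were more even in the branched-chain and aromatic lists. Branched-chain genes ranged from −5.16 for ILV2, the catalytic subunit of acetolactate synthase, to −3.91 for its regulatory subunit ILV6 (median −4.67 over 9, the others being LEU1, LEU4, LEU9, ILV1, ILV3, ILV5 and BAT1). Aromatic genes ranged from −5.17 for TRP5, tryptophan synthase, to −4.37 for TRP4, an early enzyme of tryptophan synthesis (median −4.71 over 9, the others being TRP2, TRP3, ARO1, ARO2, ARO3, ARO4 and ARO8). Among the threonine genes HOM6, homoserine dehydrogenase, changed most (−5.56) and HOM3, aspartate kinase, least (−3.84), with HOM2, THR1 and THR4 between them. SER1, the phosphoserine aminotransferase, fell by 6.12 and SER3, a phosphoglycerate dehydrogenase, by 3.31. The asparagine synthetases differed in the same way, with −6.20 for ASN2 and −3.49 for ASN1, and GLN1, glutamine synthetase, lay at −3.99.

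**Figure D1:**
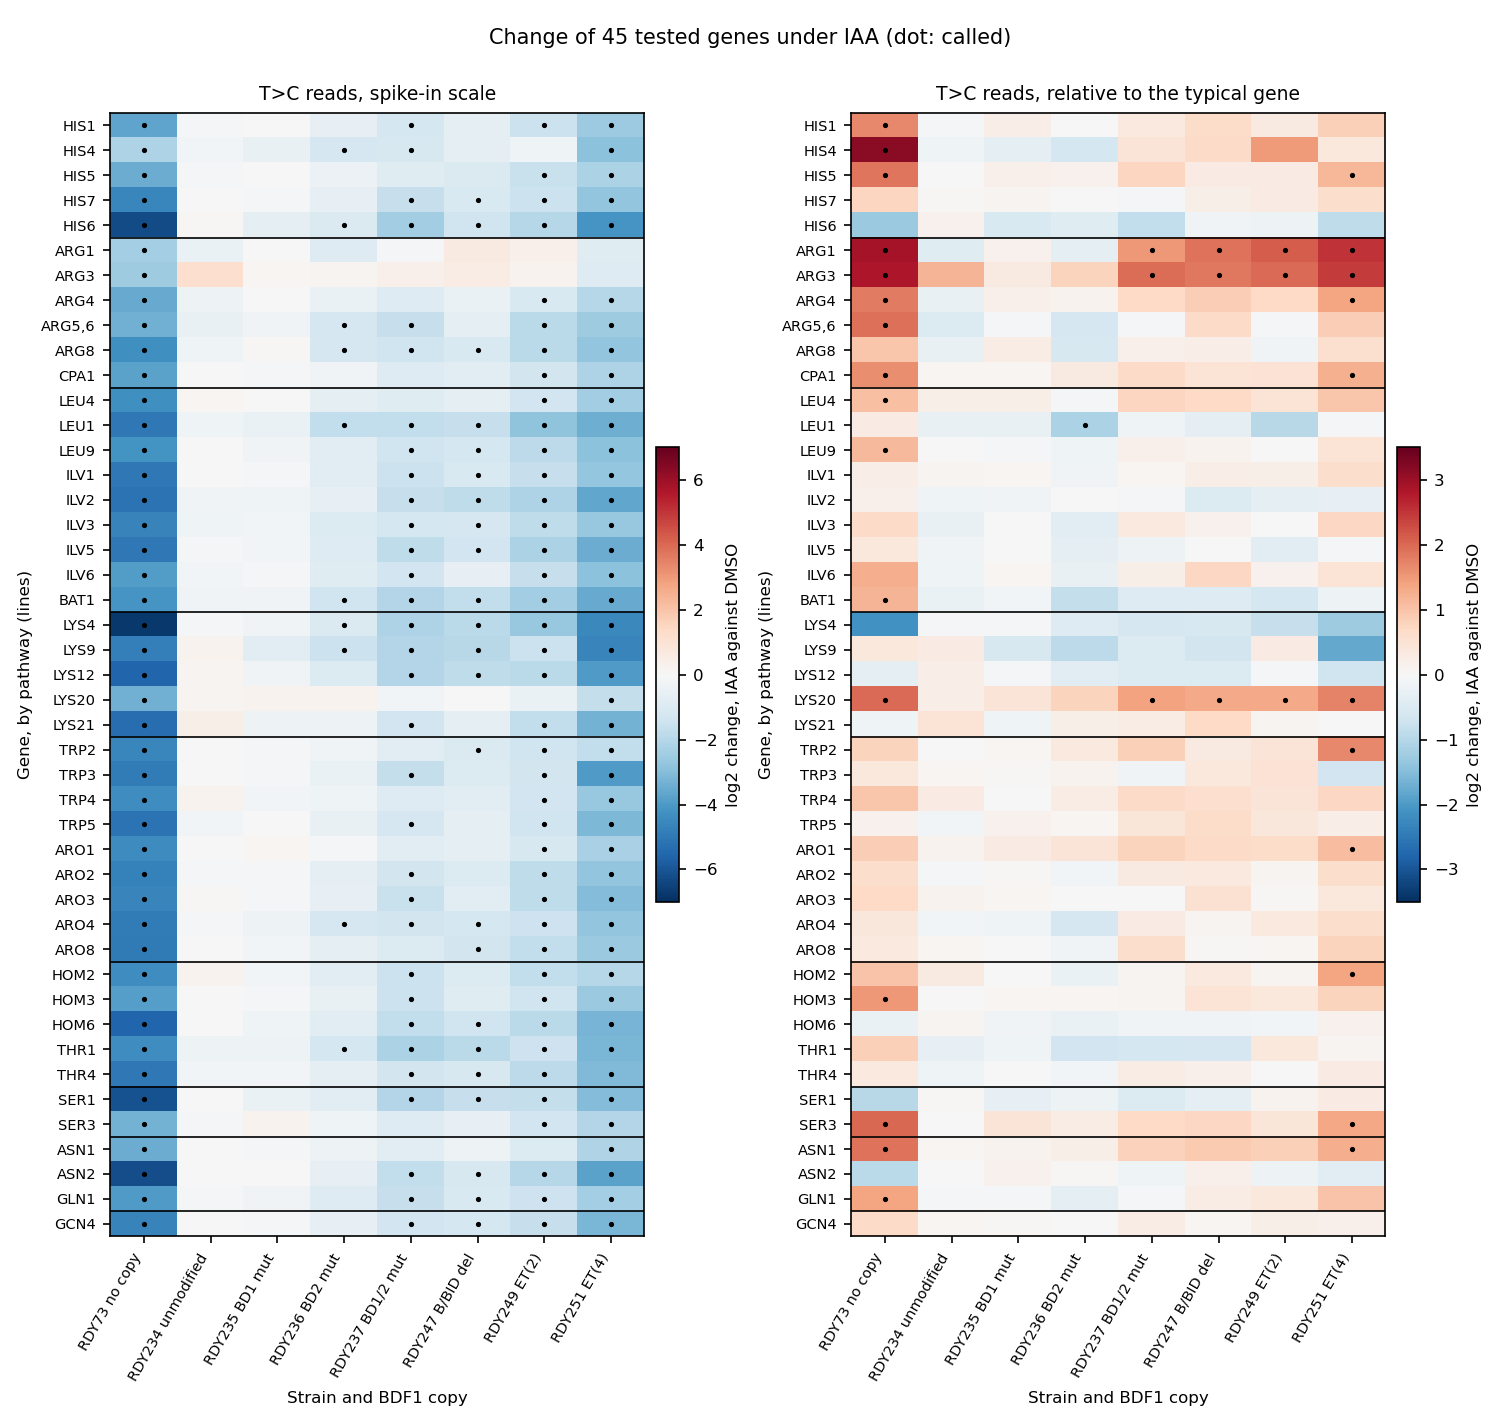
Heat maps of the fitted log2 change in T>C reads (IAA over DMSO) of 45 of the 46 tested genes in rows, ordered by pathway, and the 8 strains in columns, on the spike-in scale and relative to the typical gene; dots mark calls. On the spike-in scale RDY73 and RDY251 are lowered almost throughout, and on the relative scale ARG1, ARG3 and LYS20 are raised in 5 strains.

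With a plasmid copy of unmodified BDF1 no such decrease was called. In RDY234 none of the 46 genes was called by edgeR (0% of all genes lowered; none at an unadjusted p under 0.05, and none by DESeq2), and the median change was −0.05 on the log2 scale, beside −0.04 for all genes. GCN4 had 561, 471 and 526 normalised T>C reads under DMSO and 571, 511 and 482 under IAA, which overlapped. The copy with a mutated first bromodomain gave the same count, 0 members called in RDY235 (0.0195% of all genes called), with 2 at an unadjusted p under 0.05 and none by DESeq2. The median there was −0.16, beside −0.18 for all genes.

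With the second bromodomain mutated (RDY236), 10 of the 46 genes were called lowered beside 5.2% of all genes, and the median was −0.68 beside −0.58. LEU1, the isopropylmalate isomerase, changed most (−1.71 ± 0.26), followed by LYS9, a saccharopine dehydrogenase (−1.52), and BAT1, the mitochondrial branched-chain aminotransferase (−1.41 ± 0.23). LEU1 had 90.9, 296 and 141 normalised T>C reads under DMSO and 46.2, 55.7 and 60 under IAA. Replicate B was by far the highest of the DMSO libraries, and without it 4 genes in place of 10 were called.

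When both bromodomains were mutated (RDY237), 32 of 46 genes were lowered (90.4% of all genes), with a median of −1.34 beside −1.61 for all genes. With motif B and the basic interaction domain deleted (RDY247) 23 were lowered (76.5% of all genes), with a median of −1.0 beside −1.30. In RDY249 (ET(2)) 40 were lowered (94.5% of all genes), with a median of −1.56 beside −1.81. In each of these strains the share of members called was below the share of all genes called.

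The arginine list was the least affected of the larger lists in these strains too. It had 2 of 7 genes lowered in RDY237, 1 of 7 in RDY247 and 4 of 7 in RDY249, while all 9 branched-chain genes were lowered in RDY249, 8 in RDY237 and 7 in RDY247. LYS20 had 373, 401 and 395 under DMSO and 356, 351 and 469 under IAA in RDY247, which overlapped (0.01 ± 0.19). LYS4 fell in the same strain from 46.7, 55.1 and 33.3 to 8.47, 7.06 and 19.8 (−1.86 ± 0.34). Replicate C, which stood apart from its group, gave the highest values of LYS20 (469) and LYS4 (19.8) under IAA, and without it LYS20 was at −0.14 and LYS4 at −2.49. GCN4 fell in all 3 strains, by 1.32 ± 0.20 in RDY237, by 1.21 ± 0.20 in RDY247 and by 1.6 ± 0.20 in RDY249.

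RDY251, with the ET(4) mutations, came closest to RDY73. Of the 46 genes 44 were lowered (99.1% of all genes), with a median of −2.77 beside −3.48 for all genes. GCN4 went from 369, 393 and 446 normalised T>C reads to 41.1, 37.6 and 50.4 (−3.22 ± 0.23), without overlap. The genes with no call were ARG1 and ARG3. ARG1 had 10.4, 8.97 and 12.4 reads under DMSO and 5.14, 5.60 and 6.44 under IAA (−0.85 ± 0.44, adjusted p = 0.056), and ARG3 had 18.2, 14.5 and 15.3 and then 5.71, 7.21 and 12.3 (−0.90 ± 0.38, adjusted p = 0.018). In both genes the 3 IAA libraries were the lowest of the 6, but the decrease stayed under 2-fold. Without replicate C of the IAA group, ARG3 was called, at −1.31. Lysine genes again had the lowest median (−3.99) and arginine genes the highest (−2.0).

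**Figure D2:**
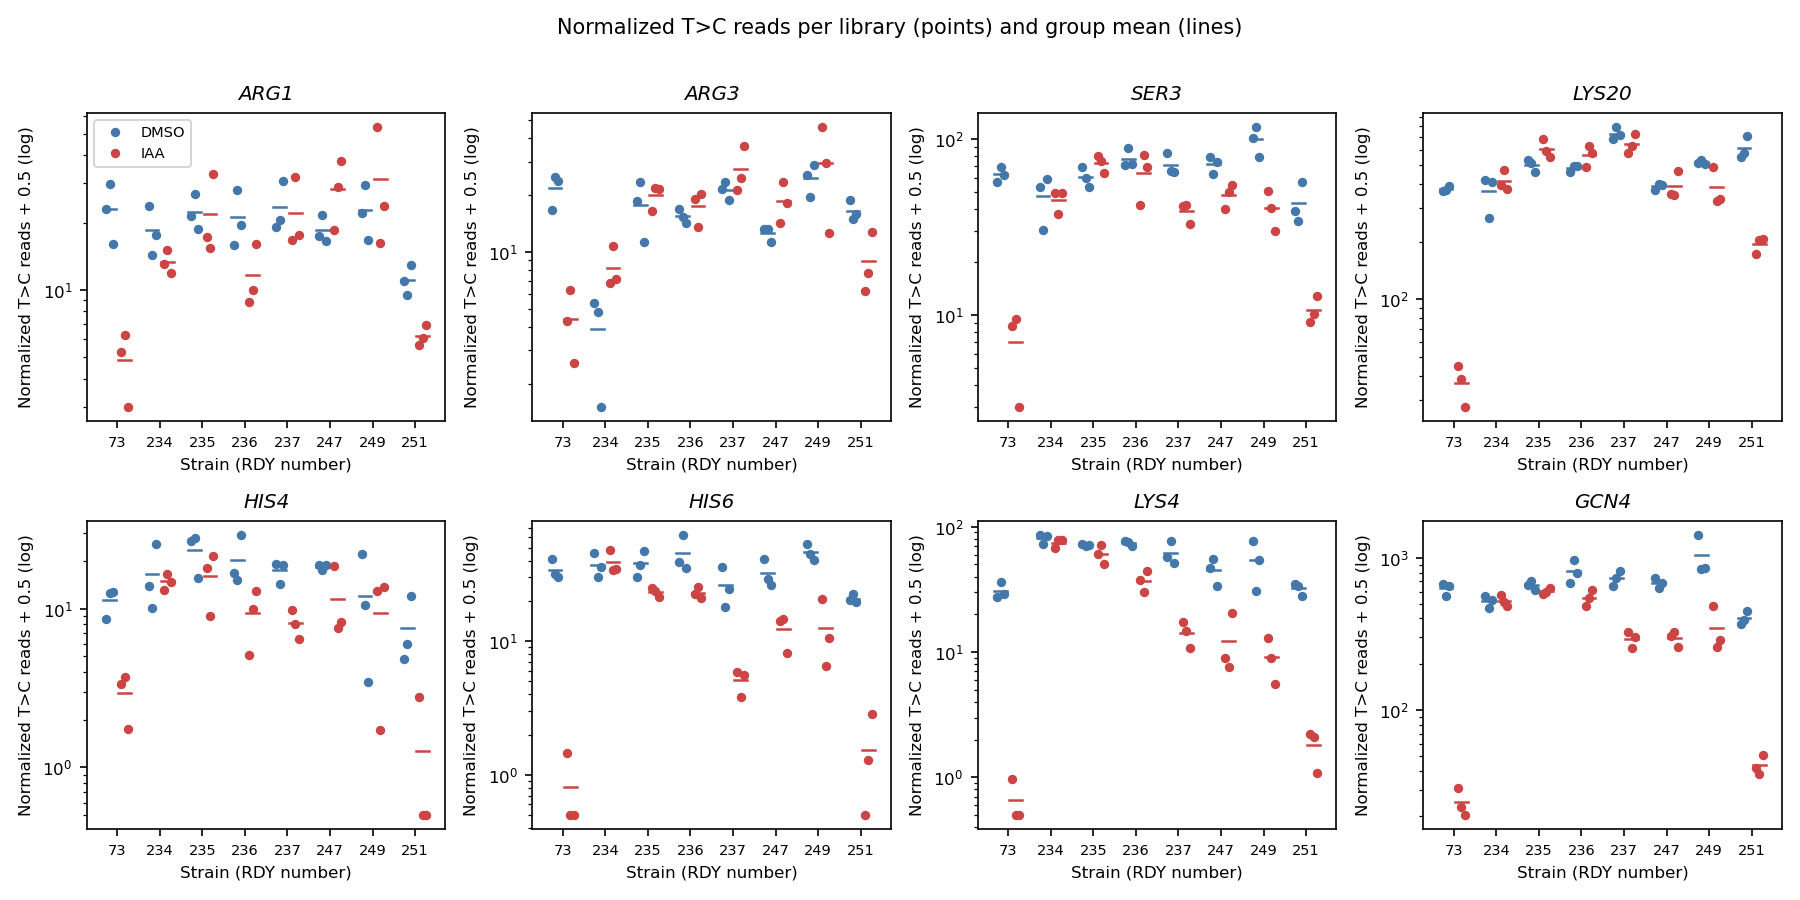
Spike-in normalised T>C reads (plus 0.5, log axis) of ARG1, ARG3, SER3, LYS20, HIS4, HIS6, LYS4 and GCN4 in every library, by strain and treatment, with points for libraries and lines for group means. In RDY73 all 8 genes drop under IAA, and in RDY247 the LYS20 libraries of both treatments overlap.

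How far these genes departed from the rest of the genome was read after scaling each library to its own S. cerevisiae T>C reads (TMM), which sets the change of the typical gene near 0. On this scale the median of all genes was −0.35 in RDY73 and that of the 46 genes 0.81. No member was called lowered by edgeR (8.19% of all genes lowered; 0 members lower at an unadjusted p under 0.05), and 17 were raised (7.82% of all genes raised). By list these were 6 of 7 arginine genes (ARG1, ARG3, ARG4 and ARG5,6 among them), 3 of 5 histidine genes (HIS1, HIS4 and HIS5), 3 of 9 branched-chain genes (LEU4, LEU9 and BAT1), 2 of 3 asparagine and glutamine genes (ASN1 and GLN1), LYS20, HOM3 and SER3. None of the 9 aromatic genes was raised. HIS4 (3.15 ± 0.67), ARG1 (2.92 ± 0.46) and ARG3 (2.84 ± 0.45) were among the largest changes. All 17 genes fell on the spike-in scale, so that raised here means that they fell less than the typical gene. Other changes were smaller. ASN1, an asparagine synthetase (1.89 ± 0.15), ARG4, argininosuccinate lyase (1.82 ± 0.30), HIS1 (1.68 ± 0.27) and HIS5 (1.86 ± 0.33) were measured closely, while ARG5,6, which encodes acetylglutamate kinase and the next enzyme (1.92 ± 0.58), rested on wider errors. LEU4 and LEU9, the isopropylmalate synthases, were just inside the 2-fold limit (1.04 ± 0.33 and 1.13 ± 0.38). HIS6 and LYS4 were at the other end, at −1.31 ± 0.89 and −2.12 ± 1.12, without a call. GCN4 was higher by 0.67 ± 0.16 (adjusted p = 0.00081), which is under 2-fold. Members with the TGACTC core had a median of 0.87 (8 of 25 raised) and those without it 0.67 (9 of 21 raised), beside −0.20 and −0.37 for all genes with and without the core. The part of the T>C reads under IAA that unlabelled RNA gives was not measured on this scale either. Total reads of ARG1 and SER3, both raised here, rose under IAA, as described further on.

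In RDY251, 12 members were raised on the relative scale (6.21% of all genes raised), with a median of 0.61 beside −0.13 for all genes. Among them were ARG1 (2.52 ± 0.46), ARG3 (2.46 ± 0.36), LYS20 (1.74 ± 0.15), ARG4, HIS5, SER3, ASN1, TRP2, ARO1 and HOM2. Of these 12, 9 were also among the 17 of RDY73, and TRP2, ARO1 and HOM2 were called in RDY251 and not in RDY73. HIS5 was at 1.16 ± 0.29, ARG4 at 1.39 ± 0.27, SER3 at 1.35 ± 0.30 and ASN1 at 1.27 ± 0.14, each a smaller value than in RDY73, a difference that was not tested. HIS4, at 3.15 in RDY73, was at 0.38 ± 0.95 in RDY251 with 4, 0 and 0 raw T>C reads under IAA. TRP2, a subunit of anthranilate synthase, was at 1.68 ± 0.21 in RDY251 and at 0.78 ± 0.34 (adjusted p = 0.099) in RDY73.

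The same 4 genes, ARG1, ARG3 and LYS20 among them, were raised on the relative scale in RDY237 (3.54% of all genes raised), RDY247 (2.95%) and RDY249 (3.03%), and no other member was called in these strains. LYS20 was at 1.42 ± 0.15 in RDY237, 1.33 ± 0.15 in RDY247 and 1.32 ± 0.15 in RDY249. In the same order the values of ARG1 were 1.51 ± 0.32, 1.91 ± 0.35 and 2.11 ± 0.34, and those of ARG3 1.95 ± 0.29, 1.84 ± 0.38 and 1.97 ± 0.32. ARG3 makes citrulline, ARG1 joins citrulline to aspartate, and LYS20 opens lysine synthesis. The call of ARG1 in RDY237 was lost without replicate B of the IAA group (1.05, adjusted p = 0.068). Without replicate C of the RDY247 IAA group ARG1 (1.52), ARG3 (1.77) and LYS20 (1.10) kept their calls in that strain, and LYS4 was called lowered (−1.24, adjusted p = 0.0434).

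With an unmodified or singly mutated copy 1 member was called on the relative scale. No member was called in RDY234 (0.0195% of all genes called; 3 at an unadjusted p under 0.05) or in RDY235 (0.0586%; 4 at an unadjusted p under 0.05), by edgeR, and DESeq2 was not run on this scale. In RDY236 LEU1 was lowered (−1.11 ± 0.22, adjusted p = 0.00065; 0.0391% of all genes lowered). This call was lost without replicate B of the DMSO group, where LEU1 changed by −0.62 (adjusted p = 0.243). Over the 46 genes the relative changes of RDY73 and RDY251 had a Pearson correlation of 0.76 (0.43 over all 5118 genes), those of RDY237 and RDY247 of 0.88 (0.61), and those of RDY73 and RDY234 of 0.07 (0.09). That was the lowest correlation of RDY234 with another strain, and its highest was 0.55 (0.25), with RDY236. RDY235 and RDY236, with no or 1 call, also had correlations with strains that had more, among them 0.70 (0.39) for RDY235 and RDY237, 0.68 (0.27) for RDY235 and RDY251, and 0.69 (0.43) for RDY236 and RDY237. The 2 strains of each pair share no library, although within a strain all genes share its 6 libraries.

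**Figure D3:**
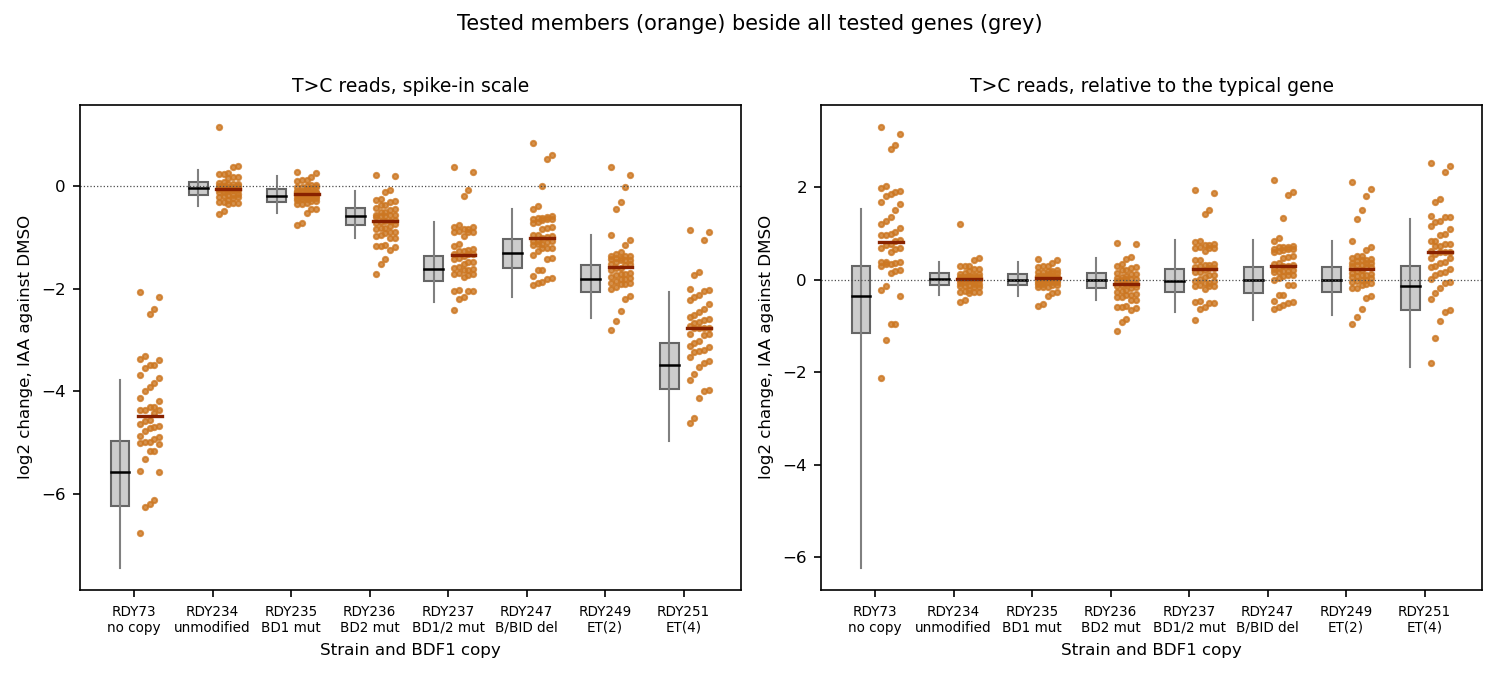
Log2 change in T>C reads between IAA and DMSO in each of the 8 strains, on the spike-in scale and relative to the typical gene; orange points are the 46 tested genes with a dark line at their median, and grey boxes and lines give the 25th to 75th and 5th to 95th percentiles of all 5118 genes with a black median. In RDY73 the members' median is −4.48 on the spike-in scale, above the −5.57 of all genes.

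Total reads moved less than new RNA. In RDY73, 33 of the 46 genes were lowered (89.3% of all genes) and 2 were raised (0.879% of all genes), with a median of −1.92 beside −2.32. Without replicate B of the DMSO group, which stood apart, ARG3 was called raised as well (1.11, adjusted p = 2.24e-06). ARG1 total reads were 158, 177 and 122 under DMSO and 365, 327 and 324 under IAA, and SER3 total reads were 200, 182 and 181 and then 643, 576 and 524. Neither gene's groups overlapped, and total reads rose by 1.15 ± 0.15 for ARG1 and by 1.63 ± 0.14 for SER3 on the log2 scale. New RNA of both genes fell in the same libraries, to 1.22% of reads for ARG1 (exact 95% interval 0.788 to 1.79%; 14.8% under DMSO) and to 1.05% for SER3 (0.742 to 1.45%; 33.0% under DMSO). The SER3 interval overlaps that of the non-coding RNA SRG1 on the same strand, so reads from the shared stretch cannot be told apart. LYS20, at 2.31% T>C reads (2.02 to 2.64%), and HIS4 at 2.61% (1.43 to 4.34%) kept a larger T>C share than the libraries as a whole. Total reads of HIS6 moved the other way, from 272, 290 and 272 to 14.3, 12.2 and 9.94 (−4.52 ± 0.20), the largest decrease in total reads among the members.

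In RDY251, 31 members were called lowered in total reads (81.1% of all genes). GCN4 total reads were 2707, 2541 and 2735 under DMSO and 2525, 2455 and 3086 under IAA, which overlapped (0.02 ± 0.13, adjusted p = 0.91), while its T>C reads fell. Total reads were lowered for 6 members in RDY237 (24.2% of all genes), for HIS6 and LYS4 in RDY247 (12.3%) and for 10 in RDY249 (19.4%). In RDY249 ARG3 total reads rose (1.04 ± 0.19; 0.723% of all genes raised), from 101, 101 and 94.8 to 284, 164 and 170, where replicate A was the highest, and without it the change was 0.76. No member's total reads were called in RDY234 (0.0391% of all genes called; 2 at an unadjusted p under 0.05), RDY235 (0.117%; 9) or RDY236 (0.606%; 31) by edgeR, and none by DESeq2.

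Relative to the typical gene's total reads, 15 members were raised in RDY73 (16.5% of all genes) and HIS6 was lowered (−2.21 ± 0.18; 13.5% of all genes). SER3 (3.94 ± 0.13), ARG1 (3.46 ± 0.15), ARG3 (3.18 ± 0.15), HIS4 (2.90 ± 0.16), GCN4 (2.41 ± 0.09) and LYS20 (2.28 ± 0.11) were among them. GCN4 was thus past the 2-fold limit in total reads (1.56 ± 0.09 in RDY251) but not in T>C reads on the relative scale.

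**Figure D4:**
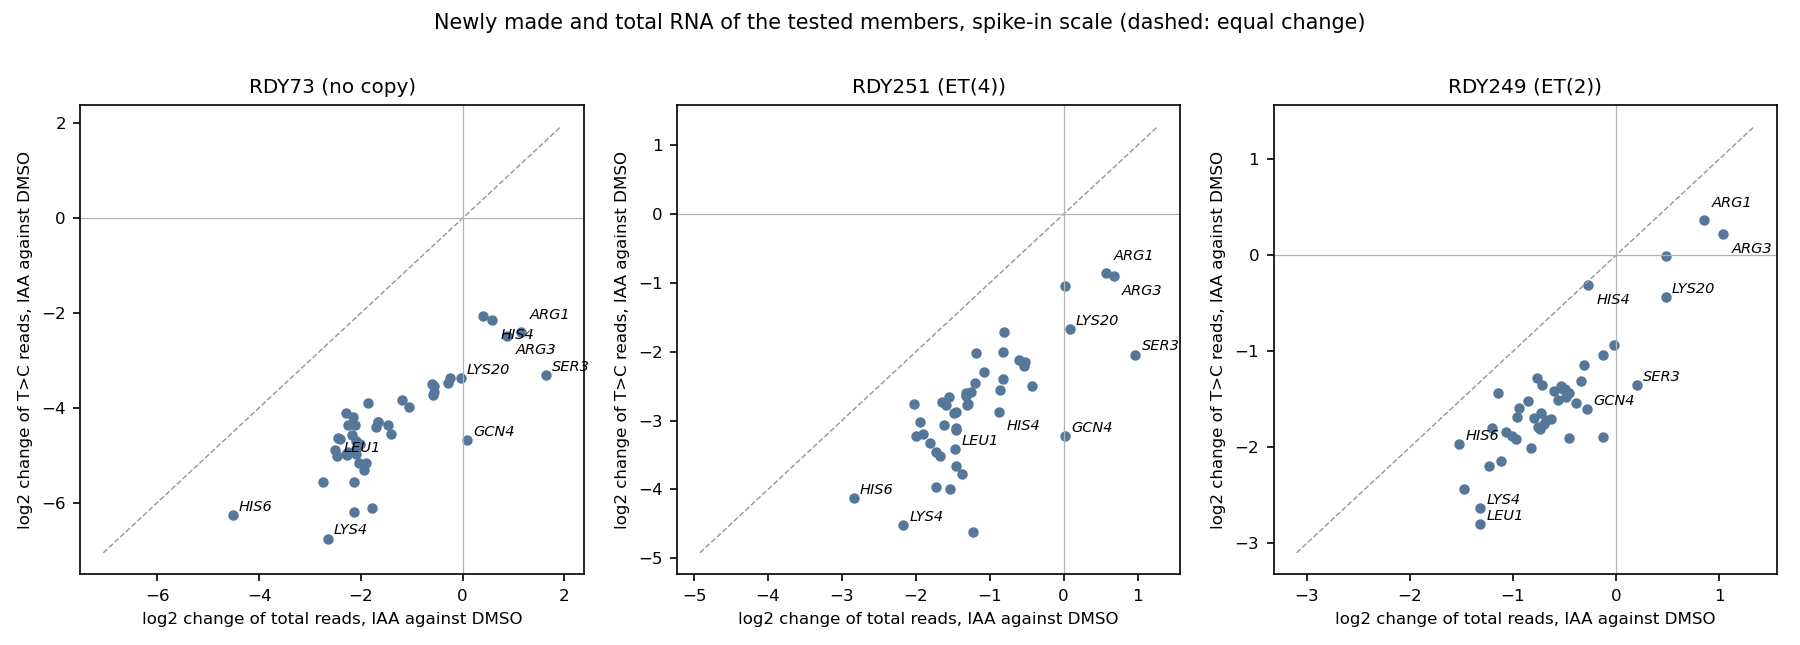
Log2 change (IAA over DMSO) in T>C reads on one axis and in total reads on the other for the 46 tested genes in RDY73, RDY251 and RDY249, with a dashed line where both change equally. GCN4, ARG1 and SER3 lie at or above 0 in total reads in RDY73 while their T>C reads fell.

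Strains were also compared with RDY234 under IAA, which asks what each BDF1 variant supplies when the tagged proteins are gone. These comparisons share the 3 RDY234 libraries. RDY235 had no member called by edgeR (0.137% of all genes called; 8 at an unadjusted p under 0.05, none by DESeq2). RDY236 had 3 lowered (1.45% of all genes), namely LEU1 (−1.2 ± 0.27), BAT1 (−1.02 ± 0.23) and LYS4 (−1.01 ± 0.26), and none of the 3 calls was kept without replicate A of the RDY236 IAA group.

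RDY237 had 26 members lowered (83.7% of all genes) and 2 raised (0.43% of all genes). The most lowered were HIS6 (−3.03 ± 0.39), LYS9 (−2.49), LYS4 (−2.41 ± 0.29) and LYS12, homoisocitrate dehydrogenase (−2.39). ARG3 was among the raised (1.82 ± 0.40). ARG3 had 6, 7 and 7 raw T>C reads in RDY234 and 27, 29 and 42 in RDY237, and the groups did not overlap. Under DMSO ARG3 was also higher in RDY237 than in RDY234 (2.62), as described further on.

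RDY251 had 44 members lowered (99.2% of all genes), by as much as 5.85 ± 0.68 for LYS9, 5.74 for LYS4, 5.66 for LEU1 and 5.31 for LYS12 on the log2 scale. LYS9 had 1 T>C read in the RDY251 group and 51 in RDY234, a ratio of 89.3 with an exact 95% interval from 15.3 to 3597. ARG3 was among those without a call (0.17 ± 0.46, adjusted p = 0.70), while under DMSO it was higher in RDY251 than in RDY234 (2.24). The median was −3.60 beside −4.39 for all genes. RDY251 was already below RDY234 under DMSO, with a member median of −0.83 and LEU1 at −2.55, as described further on.

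RDY247 and RDY249 come from a later series of library numbers than RDY234, so that strain and series cannot be told apart in what follows. RDY247 had 20 members lowered (64.6% of all genes) and ARG1 (1.12 ± 0.39) and ARG3 (1.22 ± 0.45) raised (1.02% of all genes). RDY249 had 27 lowered (65.8%) and the same 2 genes raised (1.2 ± 0.39 and 1.86 ± 0.42; 1.13%). ARG3 was low in RDY234 under DMSO too, as described further on. ARG1 lost its call without replicate C of the RDY247 IAA group (0.80, adjusted p = 0.0926) and without replicate A of the RDY249 IAA group (0.63, adjusted p = 0.155). LYS4 was lowest in both strains (−2.58 ± 0.32, or −3.21 without replicate C of the RDY247 IAA group, and −3.15 ± 0.34), followed by LYS9, LYS12 and SER1 in RDY247 and by ILV6 (−2.09 ± 0.39), LEU1 (−2.07 ± 0.30) and BAT1 (−2.0 ± 0.26) in RDY249.

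Under DMSO, where the tagged proteins are present, RDY251 differed most from RDY234. It had 13 members lowered (42% of all genes) and 1 raised (0.371% of all genes), with a median of −0.83 beside −0.94. LEU1 had 152, 167 and 138 normalised T>C reads in RDY234 and 17.3, 24.8 and 36.3 in RDY251, a change of −2.55 ± 0.28. BAT1 had 163, 137 and 167 and then 32.1, 42.1 and 46.8 (−1.95 ± 0.23). Both branched-chain genes were thus separated without overlap in cultures given no IAA. LYS4 (−1.33 ± 0.25) and HIS4 (−1.22 ± 0.47) came next, and HIS4 lost its call without replicate C of the RDY234 DMSO group (−0.72, adjusted p = 0.224) and without replicate A or B of RDY251.

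ARG3 was raised over RDY234 under DMSO in every strain of the same series, by 2.38 ± 0.50 in RDY235 (0.0586% of all genes raised), 2.15 ± 0.52 in RDY236 (1.86%), 2.62 ± 0.50 in RDY237 (0.606%) and 2.24 ± 0.51 in RDY251. These 4 comparisons share the RDY234 DMSO libraries, in which ARG3 had 4, 4 and 1 raw T>C reads (3.38 ± 2.08 normalised). The other 7 DMSO groups had means between 12.1 and 24.0, and ARG3 was also lower in RDY234 than in RDY73 (−2.64 ± 0.49; 4.03% of all genes lowered), a comparison between series. Total ARG3 reads were 32.0 ± 7.86 in RDY234 and 86.3 ± 23.7 in RDY73. The RDY235 call was lost without replicate B or C of RDY234 and without replicate A or B of RDY235 (adjusted p from 0.0525 to 0.849), and the RDY236 call without replicate C of RDY234 or replicate B of RDY236.

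RDY236 also had LEU4 raised under DMSO (1.06 ± 0.22), and RDY237 had LYS20 (1.01 ± 0.19), among 3 members raised in each. The LEU4 call was lost without replicate A of RDY234 or replicate B of RDY236, and the LYS20 call without replicate B of RDY234 or of RDY237. Against RDY73 under DMSO, within the later series, RDY247 had no member called by edgeR (2.54% of all genes called; 13 at an unadjusted p under 0.05, none by DESeq2). RDY249 had 5 raised (8.17% of all genes), namely LEU1 (1.22 ± 0.25), BAT1 (1.22 ± 0.23), LEU9 (1.19), ILV6 (1.11 ± 0.38) and LYS21 (1.0). The summed T>C reads of the 49 genes spread from 7447 to 10474 over the RDY249 DMSO libraries, and without its replicate A 2 members in place of 5 were called, with LEU1 (0.98), ILV6 (0.90) and LYS21 (0.99) losing their calls. LYS21 also lost its call without replicate C of either strain, and without replicate B of RDY73, which stood apart, 8 members were called. RDY234 against RDY73 had ILV6 (1.76 ± 0.34), LYS4 (1.41 ± 0.26) and BAT1 (1.06 ± 0.22) raised (6.96% of all genes), with BAT1 at 0.98 without replicate B of RDY73, and this comparison cannot be told apart from the series either.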

How the data were processed

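The authors trimmed reads with fastp 0.23.2 and bbduk and counted them with SLAM-DUNK 0.4.3, and the deposited files give total and T>C read counts per gene and library, as whole-number counts without normalization. The submitters' processing notes name the builds R64 and ASM294v2. Counted intervals extend 250 bases past the 3′ end of 6460 genes, and 11 members overlap a neighbour on the same strand (HIS2, ARG8, CPA1, ILV6, TRP4, TRP5, ARO1, HOM2, HOM6, SER1 and SER3).

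Size factors (0.567 to 2.41) were medians of ratios of S. pombe total reads over 4955 genes. All 48 libraries entered 1 fit in edgeR 4.0.16 (R 4.3.3) with a coefficient for each group, over genes with a mean of at least 10 T>C reads. The relative scale used TMM factors. DESeq2 1.42.0, other scalings and filters, and leaving out each library were tried as alternatives, and fits were tested on simulated data. Members and lists were chosen with earlier results of these data known. Named genes are GCN4, list extremes in RDY73, members without a call in RDY73 or RDY251, raised members, the 4 largest calls each way in the relative and strain comparisons, and untested members, and others are named only to complete a list. No libraries were duplicates (lowest chi-square per degree of freedom 2.49). Deviations of same-lettered libraries from their group means were at most weakly correlated in 21 comparisons (r from −0.08 to 0.15), so letters were not used as pairs. Results of a withheld item are not reported here, although counts and medians over the lists include every member.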

Additional observations from a re-analysis of the deposited data

Results flagged for a closer look

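The response to IAA was set against that of RDY234 in the same fit, as an interaction, with the 3 RDY234 libraries of each treatment shared by all strains. On the spike-in scale the T>C change was lower than in RDY234 for 46 of 46 members in RDY73 (99.9% of all genes lower), 45 in RDY251 (99%), 38 in RDY249 (92.8%), 31 in RDY237 (88.1%) and 20 in RDY247 (69.8%). By edgeR it was called for 0 members and 0% of all genes in RDY235 (1 member at an unadjusted p under 0.05) and in RDY236 (19 members), and DESeq2 was not run for this contrast.

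Relative to the typical gene the change was higher than in RDY234 for 14 members in RDY73 (6.19% of all genes higher), 11 in RDY251 (4.85%), 4 in RDY247 (1.19%), 3 in RDY249 (1.41%) and 3 in RDY237 (1.86%). ARG1 differed most each time. Its log2 change exceeded that of RDY234 by 3.34 where no copy was present (RDY73), by 2.94 with ET(4) (RDY251), by 2.54 with ET(2) (RDY249), by 2.34 without B/BID (RDY247) and by 1.94 with both bromodomains mutated (RDY237). RDY73, RDY247 and RDY249 belong to the later series of library numbers, and RDY234 to the earlier.

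LYS2, deleted in the parent strain, had 169 total reads over the 48 libraries, of which 3 were T>C reads.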

How the results depend on the processing

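Counts of members called depended most on the scaling. Under TMM in place of the spike-in, the count between IAA and DMSO for T>C reads went from 46 to 17 in RDY73, from 10 to 1 in RDY236, from 32 to 4 in RDY237, from 23 to 4 in RDY247, from 40 to 4 in RDY249 and from 44 to 12 in RDY251. Against RDY234 under IAA it went from 28 to 13 in RDY237, 22 to 9 in RDY247, 29 to 7 in RDY249 and 44 to 18 in RDY251. Under DMSO it went from 3 to 1 (RDY236) and 14 to 6 (RDY251) against RDY234, and from 5 to 0 for RDY249 against RDY73. For total reads it went from 35 to 16 in RDY73, 2 to 5 in RDY247, 11 to 4 in RDY249 and 31 to 9 in RDY251. TMM sets the typical gene near 0 by construction. In RDY73 all 46 T>C changes were negative with the spike-in and 39 were positive under TMM. Among the list extremes of RDY73 the sign turned for GCN4 (0.67), HIS4 (3.15), ARG8 (0.98), ILV2 (0.19), ILV6 (1.28), LYS20 (1.98), TRP5 (0.14), TRP4 (0.97), HOM3 (1.51), SER3 (2.02) and ASN1 (1.89), and it also turned for ARG1 (2.92) and ARG3 (2.84), as it did in RDY251 (ARG1 2.52 and ARG3 2.46).

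With a mean of at least 50 T>C reads, 31 members were tested, and the count fell from 10 to 3 in RDY236, 32 to 19 in RDY237 and 23 to 15 in RDY247 between IAA and DMSO, from 28 to 15 (RDY237), 22 to 11 (RDY247) and 29 to 16 (RDY249) against RDY234 under IAA, from 1 to 0 (RDY235) and 14 to 5 (RDY251) against RDY234 under DMSO, from 5 to 3 for RDY249 and 4 to 1 for RDY234 against RDY73, and from 4 to 2 in both RDY237 and RDY247 on the relative scale. Fits of the compared groups alone gave 1 in place of 0 (RDY235) and 5 in place of 3 (RDY236) against RDY234 under IAA. Scaling by S. pombe T>C reads gave 1 in place of 3 for RDY236 against RDY234 under both treatments and 2 in place of 5 for RDY249 against RDY73, where scaling by the S. pombe read total gave 3. For these the cause was not tested. All 29 counts under DESeq2, 37 without a count filter and 37 with a replicate block stayed within 1.5 times (with the block, 9 in place of 10 in RDY236), and all 80 named changes kept their call with the block.

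Leaving out 1 library at a time, T>C counts between IAA and DMSO were 4 to 15 in RDY236 (4 without DMSO replicate B), 32 to 34 in RDY237, 23 to 25 in RDY247, 37 to 41 in RDY249 and 43 to 45 in RDY251. Against RDY234 under IAA they were 0 to 3 (RDY236), 23 to 29 (RDY237), 19 to 22 (RDY247), 20 to 33 (RDY249) and 43 to 44 (RDY251). Under DMSO they were 0 to 1 (RDY235), 0 to 7 (RDY236), 2 to 4 (RDY237) and 9 to 19 (RDY251) against RDY234, and 2 to 11 for RDY249 against RDY73. On the relative scale they were 15 to 18 in RDY73, 0 to 1 in RDY236, 3 to 4 in RDY237, 4 to 5 in RDY247 and RDY249, and 10 to 14 in RDY251. For total reads they were 35 to 36 in RDY73, 0 to 1 in RDY236, 4 to 11 in RDY237, 1 to 4 in RDY247, 7 to 15 in RDY249 and 31 to 32 in RDY251.

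Depth limits the members least expressed. Under IAA 7 tested members had 5 or fewer T>C reads in the group in RDY73 and 3 in RDY251. Each group had 3 libraries, and p-values were judged against the spread between replicates estimated over all 48 libraries together. A group with a replicate that stood apart was therefore not judged by its own spread alone. T>C reads without labelling were not measured.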

Other observations

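Of 19 other genes of amino acid synthesis, all 19 were lowered in RDY73 on the spike-in scale (median −4.78), and 1 was raised relative to the typical gene. Of 10 tested sulfur amino acid genes all 10 were lowered (median −5.0), and 1 was raised on the relative scale. Of 17 regulators of these pathways all 17 were lowered (median −6.07), with 2 raised and 2 lowered on the relative scale. The shares of all genes raised and lowered on the relative scale were 7.82% and 8.19%.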
